A study of Homo sapiens with 2 samples.

Results

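The genes described here are the cyclins and kinases that carry a cell through G1, together with the inhibitor CDKN1B, the retinoblastoma gene RB1 and the transcription factor E2F1. They were chosen by symbol from the 36601 genes of the files and number 10: CCND1, CCND2, CCND3, CDK2, CDK4, CDK6, CDKN1B, RB1, E2F1 and CCNE1. RNA was measured in single A549 cells, a widely used epithelial line from a human lung adenocarcinoma, in 2 libraries. The squashed library came from cells confined with polydimethylsiloxane (PDMS) micropillars and the control library from cells grown in 2D without confinement. Both carry the same batch label and were sorted as live cells that had lost a chromosome reporter, a state of about 1 cell in 500, after 48 h of recovery. The comparison addresses whether past confinement leaves such cells with an altered division program, the question in the title of the study. Each group is 1 library of 1 cell line, so no test between groups was possible, and every 95% interval below covers counting error only.

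In G1, mitogens raise the D-type cyclins (CCND1, CCND2 and CCND3), which bind the kinases CDK4 and CDK6. These kinases phosphorylate the RB1 protein, which then releases E2F transcription factors such as E2F1. E2F in turn raises CCNE1 and its own gene, and cyclin E with CDK2 completes the phosphorylation of RB1 and starts DNA replication. CDKN1B (p27) inhibits cyclin E-CDK2 and also binds cyclin D-CDK4 complexes. A549 cells lack the neighbouring inhibitor genes CDKN2A and CDKN2B through a deletion and keep RB1.

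Promoters are shown for 4 members whose levels turn up below. E2F1 and CDK4 were higher in cells called S than in those called G1, CDK4 only modestly. CDKN1B and CCNE1 differed between the libraries. The promoters are the 250 bases before the RefSeq start on GRCh38.p14, read 5′ to 3′ on the gene's strand. Capitals mark E2F octamers in E2F1, CACGTG E-boxes in CDK4, CCAAT boxes in CDKN1B and GGGCGG boxes in CCNE1, each on either strand.
E2F1, chr20:33686386-33686635, minus strand: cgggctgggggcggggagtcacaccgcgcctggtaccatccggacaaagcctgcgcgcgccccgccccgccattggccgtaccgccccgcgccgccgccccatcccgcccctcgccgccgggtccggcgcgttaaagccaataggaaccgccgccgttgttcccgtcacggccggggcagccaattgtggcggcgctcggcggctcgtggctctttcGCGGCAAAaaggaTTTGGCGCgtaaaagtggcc
CDK4, chr12:57752311-57752560, minus strand: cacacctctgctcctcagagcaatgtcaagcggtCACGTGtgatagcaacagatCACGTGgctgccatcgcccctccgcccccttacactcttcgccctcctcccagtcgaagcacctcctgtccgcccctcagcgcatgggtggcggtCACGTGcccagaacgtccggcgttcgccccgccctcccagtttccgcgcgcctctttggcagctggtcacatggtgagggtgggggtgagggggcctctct
CDKN1B, chr12:12717118-12717367, plus strand: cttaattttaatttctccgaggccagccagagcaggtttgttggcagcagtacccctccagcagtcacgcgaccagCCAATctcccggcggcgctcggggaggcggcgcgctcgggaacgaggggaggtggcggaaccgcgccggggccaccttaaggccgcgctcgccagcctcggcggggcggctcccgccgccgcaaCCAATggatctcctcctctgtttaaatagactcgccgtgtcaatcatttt
CCNE1, chr19:29811741-29811990, plus strand: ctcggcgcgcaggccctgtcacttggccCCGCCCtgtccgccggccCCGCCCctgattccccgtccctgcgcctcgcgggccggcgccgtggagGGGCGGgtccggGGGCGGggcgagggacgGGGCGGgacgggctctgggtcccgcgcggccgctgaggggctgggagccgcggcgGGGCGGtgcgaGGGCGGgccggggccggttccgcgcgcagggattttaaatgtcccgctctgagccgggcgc

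The octamers searched were TTTCCCGC, TTTGGCGC, TTTCGCGC and TTTGCCGC. E2F1 held 2 matches, which begin 33 and 20 bases before the start, whereas 2.79% of 35116 such windows in the table held any. The E2F1 window was the only window with an octamer among the 10 windows that the table gives for 7 of the 10 members. CDK4 held 3 E-boxes, which begin 216, 196 and 101 bases before its start, and 6.34% of windows held any. The windows of CDK4 and CDKN1B lie inside the longer gene spans of GENCODE 44, and those of E2F1 and CCNE1 lie directly before theirs. CDKN1B held 2 CCAAT boxes, 174 and 50 bases before its start, and CCNE1 held 7 GGGCGG boxes; 32.0% and 42.6% of windows held these common motifs. A match is a string of letters and not a shown binding site.

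The squashed library held 3132 barcodes, of which 1930 were kept as cells with 23328323 UMIs, and the control library held 2574 barcodes, of which 1906 were kept with 27482392 UMIs. A UMI tags each captured molecule, and levels are given as CPM, the counts per library scaled to a fixed total. Squashed cells were shallower, with a median of 9331 UMIs against 12459 in control cells. Their median mitochondrial share was 7.10%, against 5.77% in control cells. The libraries shared 2 barcodes among kept cells. CDKN2A and CDKN2B had no UMI in any kept cell of either library, which allows a share of cells with a UMI of up to 0.155% in the squashed and 0.157% in the control library and sets no limit on cells that express the genes. Of 6 epithelial markers KRT8, KRT18 and KRT7 were abundant. KRT8 stood at 1168 CPM in squashed and 796 CPM in control cells, KRT18 at 557 and 1691 CPM, and KRT7 at 381 and 349.7 CPM, so the keratins differed in opposite directions. KRT19 (2.79 and 2.44 CPM) and CDH1 (4.12 and 7.86 CPM) were scarce, and EPCAM had 0 squashed and 5 control UMIs. Markers of other cell types were scarce: 6 fibroblast markers summed to 6.39 CPM in squashed and 7.82 CPM in control cells and 5 endothelial markers to 0.0429 and 0.0728 CPM. The immune markers PTPRC, CD3E and MS4A1 were at 0 in both libraries, and the 6 markers of that list summed to 23.2 CPM in squashed and 15.5 CPM in control cells, of which CD68, a lysosomal protein also made outside the immune system, gave 21.8 and 13.4 CPM. COL1A2 of the fibroblast list and CDH5, KDR and CLDN5 of the endothelial list were at 0 in both libraries. The part of these genes and of the mitochondrial share in the results below was not tested.

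Among the D-type cyclins, CCND1 was 2.54-fold lower in the squashed library. It stood at 103 CPM (95% interval 99.2 to 107) in squashed cells and at 262 CPM (256 to 268) in control cells, a log2 ratio of -1.34 (-1.41 to -1.28). CCND3 was close, at 77.7 CPM (74.2 to 81.4) in squashed and 88.0 CPM (84.5 to 91.6) in control cells, with a log2 ratio of -0.18 (-0.27 to -0.09). CCND2 was almost silent, with 5 UMIs in squashed and 1 UMI in control cells. The interval of its log2 ratio ran from -0.60 to 8.12 and gives no direction. Summed over the 3 genes, D-type cyclin RNA stood at 181 CPM in squashed and 350.3 CPM in control cells (log2 ratio -0.95, -1.003 to -0.899).

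CCND1 thus supplied a smaller part of D-type cyclin RNA in the squashed library. It gave 57.0% of the UMIs of the 3 genes in squashed cells (55.5 to 58.5, 4227 UMIs) and 74.9% in control cells (74.0 to 75.7, 9626 UMIs). CCND3 gave the remainder, 42.9% in squashed and 25.1% in control cells, apart from the few CCND2 UMIs. A UMI counts a molecule once whatever its length, but capture can differ between genes, so these shares compare the libraries rather than the cyclins.

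Of the 10 members, 4 reached 20 CPM in either library, the level taken as measured: CCND1, CCND3, CDK4 and CDK6. Of these 4, 1 (CCND1) was at least 1.5-fold lower and 0 were higher by that size. The background over all 4307 measured genes was 12.4% lower and 3.48% higher by 1.5-fold or more. By 2-fold or more, the size that CCND1 passed, 5.11% were lower and 1.09% higher. A count of 1 in 4 is too small to set apart from this background. Over all measured genes the median log2 ratio was -0.14, and relative to it CCND1 stood at -1.21. CCND1 has a transcript of 4238 nt with 50.3% GC, and the 1328 measured genes of its length class and the 640 of its GC class had medians of -0.15 and -0.12.

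**Figure D1:**
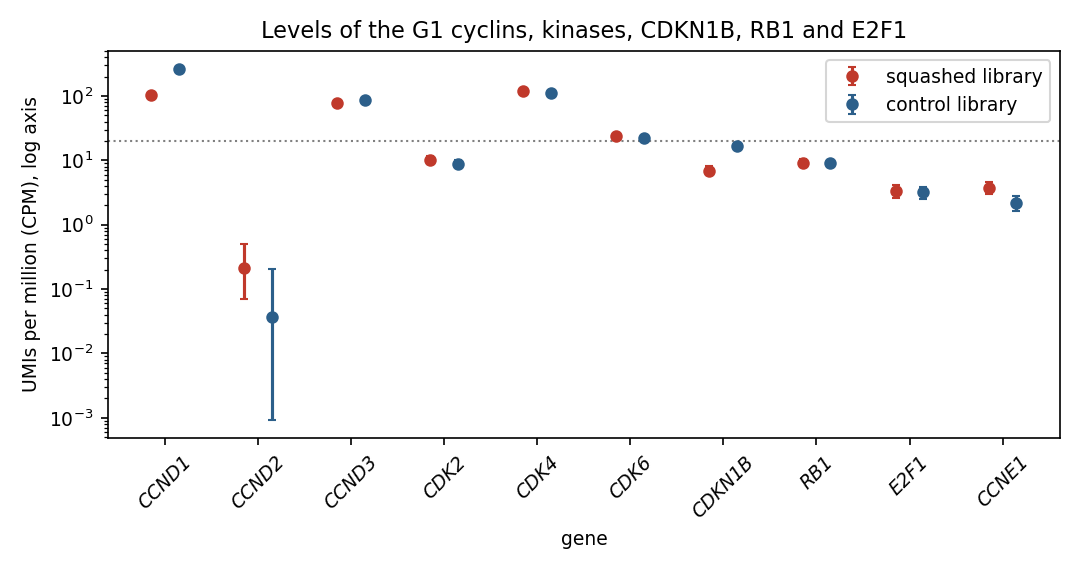
Level of each of the 10 genes in CPM on a log axis, squashed library in red and control library in blue, with 95% Poisson intervals and a dotted line at 20 CPM. CCND1 and CDKN1B are lower in the squashed library (103 against 262 CPM and 6.90 against 16.8 CPM), CCNE1 is higher (3.69 against 2.15 CPM), and CCND2 is near 0 in both.

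Summed over all kept cells, the G1 kinases differed little between the libraries. CDK4, a catalytic partner of the D-type cyclins, stood at 120.3 CPM (116 to 125) in squashed and 113 CPM (109 to 116.6) in control cells, a log2 ratio of 0.10 (0.02 to 0.17) that turned to -0.03 under a stricter cell filter. CDK6, its close relative, stood at 23.5 CPM (21.6 to 25.5) in squashed and 22.0 CPM (20.3 to 23.8) in control cells. Its log2 ratio of 0.09 had an interval from -0.08 to 0.26 and moved to 0.49 under the stricter cell filter. CDK2, the partner of cyclin E, stood at 10.1 CPM (8.87 to 11.5) in squashed and 8.91 CPM (7.83 to 10.1) in control cells, with a log2 ratio of 0.18 (-0.08 to 0.45). The CDK6 and CDK2 intervals span 0. CDK4 gave 83.7% of CDK4 plus CDK6 UMIs in squashed cells (82.4 to 84.9) and 83.6% in control cells (82.4 to 84.8), so the overall proportion of the kinases was nearly equal. It was less equal within subsets, at 83.0% in squashed and 77.5% in control cells called G1. In cells called G2/M it was 84.7% and 87.2%. Under the stricter cell filter it was 86.1% (84.3 to 87.7) in squashed and 89.9% (88.5 to 91.1) in control cells.

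CDKN1B, the p27 inhibitor, was 2.43-fold lower in the squashed library. It had 161 UMIs or 6.90 CPM (5.88 to 8.05) in squashed and 461 UMIs or 16.8 CPM (15.3 to 18.4) in control cells, a log2 ratio of -1.28 (-1.55 to -1.02). It lay under 20 CPM in both libraries and so outside the count above. With the minimum level set at 5 CPM, 8680 genes were measured, of which 14.6% were lower and 3.18% higher by 1.5-fold or more, and 5.24% lower and 1.07% higher by 2-fold or more. CDKN1B lies on chromosome 12 (12685498 to 12722369 in GRCh38). So do CCND2 (4269771 to 4305353), CDK2 (55966781 to 55972789) and CDK4 (57747727 to 57756013), whose ratios are given above. CCND2, the member nearest to CDKN1B, had too few UMIs to give a direction. CCND1 lies on chromosome 11, from 69641156 to 69654474.

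RB1 and E2F1 showed no difference beyond counting error over all kept cells. RB1, which holds E2F in check, stood at 9.13 CPM (7.95 to 10.4) in squashed and 8.95 CPM (7.87 to 10.1) in control cells, a log2 ratio of 0.03 (-0.24 to 0.30). E2F1 stood at 3.30 CPM (2.605 to 4.13) in squashed and 3.17 CPM (2.54 to 3.90) in control cells, a log2 ratio of 0.06 (-0.40 to 0.52). The E2F1 interval, on 77 and 87 UMIs, is wide and leaves a moderate difference in either direction undetectable at this depth. CCNE1, a target of E2F, had 86 UMIs or 3.69 CPM (2.95 to 4.55) in squashed and 59 UMIs or 2.15 CPM (1.63 to 2.77) in control cells, a 1.71-fold higher level (log2 ratio 0.78, 0.29 to 1.28). At a minimum of 1 CPM, 4.66% of 12273 genes were higher and 17.3% lower by 1.5-fold or more.

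The lower CCND1 in the squashed library held at equal depth in single cells. In cells with at least 10000 UMIs thinned to that number, CCND1 averaged 1.10 UMIs per cell in 906 squashed cells and 2.67 UMIs in 1190 control cells. No CCND1 UMI was found in 40.6% of squashed and 17.1% of control cells, where counting around a common level would leave 33.3% and 6.90%. The variance exceeded the mean 1.51-fold in squashed and 1.94-fold in control cells, so CCND1 varied between cells beyond counting in both libraries. The upper decile began at 3 UMIs in squashed and 6 UMIs in control cells. CDK4 averaged 1.21 UMIs in squashed and 1.16 UMIs in control cells, with 35.1% and 34.5% of cells at 0.

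**Figure D2:**
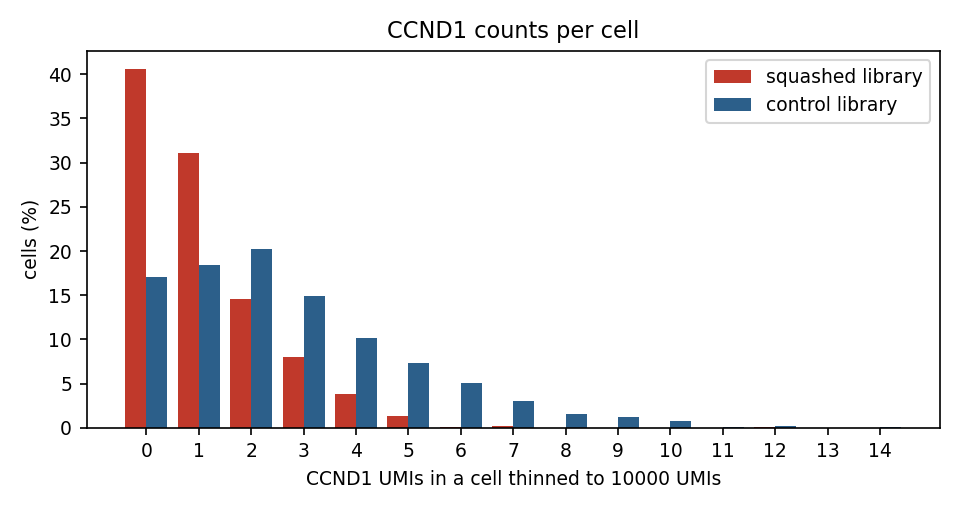
Share of cells (%) by number of CCND1 UMIs after thinning to 10000 UMIs per cell, squashed library in red (906 cells) and control library in blue (1190 cells). Squashed cells pile up at 0 and 1 UMI and control cells spread to higher counts, with medians of 1 and 2 UMIs.

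At 2000 UMIs per cell CCND1 was seen in 18.01% of the 1782 squashed cells deep enough (interval 16.3 to 19.9) and in 38.1% of the 1825 control cells (interval 35.8 to 40.4), and without thinning in 54.9% and 82.5%. CCND3 was seen in 11.6% of squashed and 12.8% of control cells at 2000 UMIs, and CDK4 in 19.4% and 20.7%. CDKN1B was seen in 1.18% of squashed cells (interval 0.731 to 1.80) and in 2.96% of control cells (interval 2.23 to 3.84). The other members were seen in under 4% of cells of either library at this depth. Neither library holds a cell type that should lack these genes, so the share that free RNA gives was not measured for them; CDKN2A was seen in 0 cells.

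Cells were next called G1, S or G2/M from lists of S and G2/M genes that hold no member, which gave 708, 332 and 742 squashed cells and 605, 228 and 992 control cells. CCND1 was lower in squashed cells under every call, but by unequal amounts. In cells called G1 it stood at 96.9 CPM in squashed and 202 CPM in control cells (log2 ratio -1.06, -1.18 to -0.94). In cells called S it stood at 94.0 and 246 CPM (-1.39, -1.57 to -1.21), and in cells called G2/M at 113 and 309 CPM (-1.46, -1.55 to -1.36). The interval for G1 lies above the others without overlap. In the cells called G1, S and G2/M, 1, 1 and 2 members were lower by 1.5-fold or more and 0 higher. The background over all measured genes was 26.5% lower and 4.87% higher in G1, 14.5% and 4.64% in S, and 9.14% and 4.68% in G2/M, and the medians over all measured genes were -0.24, -0.12 and -0.05. Cells called G1 differed most in depth, with medians of 9263 UMIs and 1457 genes in squashed and 14793 UMIs and 2795 genes in control cells, and the part of depth in the G1 ratio was not tested.

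Within control cells CCND1 was higher in cells called G2/M than in those called G1, and less so within squashed cells. The log2 ratio of G2/M over G1 was 0.22 (0.09 to 0.35) in squashed and 0.62 (0.54 to 0.69) in control cells, where the median of all measured genes was 0.39 and 0.19. Set against these medians, CCND1 was below the average gene in squashed and above it in control cells. CDKN1B was lower in squashed cells under every call as well, at 5.09 and 13.1 CPM in G1, 5.60 and 11.3 CPM in S, and 8.74 and 20.7 CPM in G2/M, squashed value first in each pair. Its log2 ratios of -1.35, -1.002 and -1.23 had overlapping intervals. CDKN1B was higher in G2/M than in G1 by 0.77 (0.25 to 1.33) in squashed and 0.65 (0.35 to 0.97) in control cells. In cells called G2/M CDKN1B reached 20 CPM in control cells alone, and 2 of 5 measured members, CCND1 and CDKN1B, were then at least 1.5-fold lower. CDKN1B entered this count only through the library where it was higher, so the count adds no support for a lower level.

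**Figure D3:**
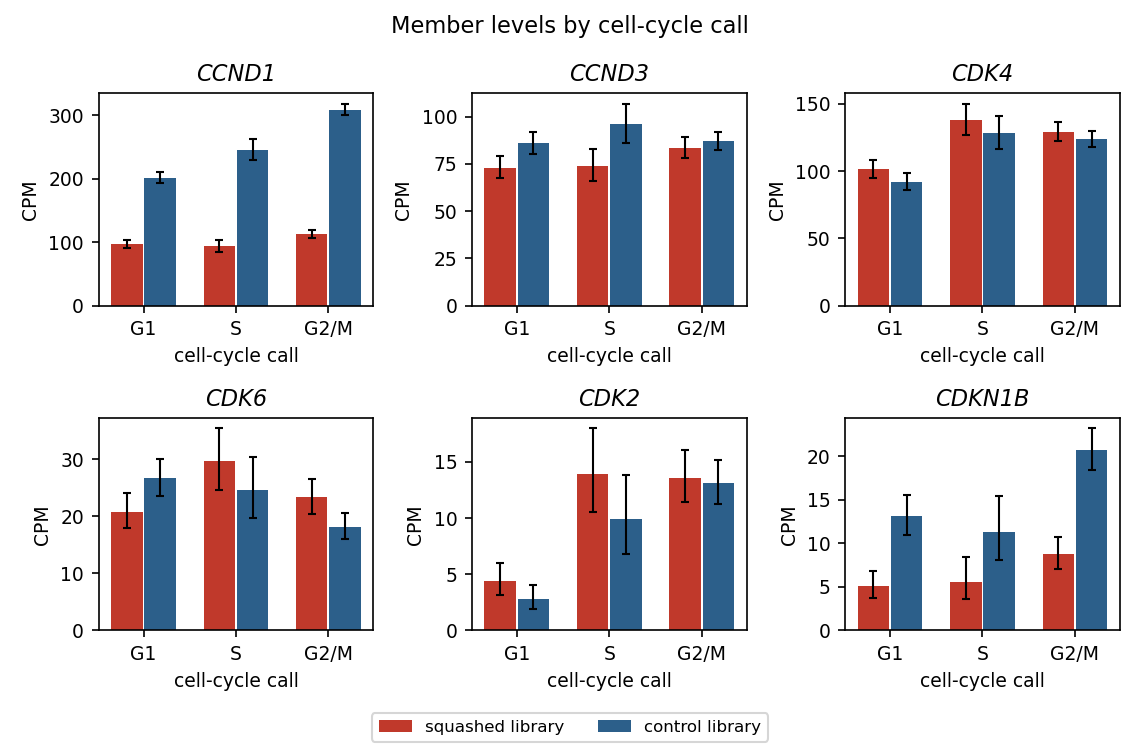
Level in CPM of 6 genes in cells called G1, S and G2/M, squashed library in red and control library in blue, with 95% Poisson intervals. CCND1 climbs across the calls to 309 CPM in control cells but stays between 94.0 and 113 CPM in squashed cells, and CDK2 is lowest in cells called G1 in both.

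E2F1 and CDK2 followed the cell-cycle calls in both libraries. E2F1 was at 7.79 CPM in S and 1.02 CPM in G1 in squashed cells (32 and 9 UMIs, log2 ratio 2.88, 1.83 to 4.19). In control cells it was at 9.29 CPM in S and 1.21 CPM in G1 (32 and 12 UMIs, 2.91, 1.95 to 4.03). CDK2 was at 13.9 CPM in S and 4.41 CPM in G1 in squashed cells (log2 ratio 1.65, 1.04 to 2.28), and at 9.87 and 2.82 CPM in control cells (1.80, 1.04 to 2.58). CDK2 was also higher in G2/M than in G1, by 1.61 (1.10 to 2.17) in squashed and 2.19 (1.63 to 2.84) in control cells on the log2 scale. CDK4 was modestly higher in S than in G1, by 0.44 (0.29 to 0.60) and 0.48 (0.31 to 0.64), while CCND3 was nearly flat, at 0.02 (-0.18 to 0.22) in squashed and 0.16 (-0.03 to 0.34) in control cells. The medians of all measured genes for S over G1 were 0.12 in squashed and 0.03 in control cells. The S over G1 ratios of CCNE1 were 0.68 (-0.17 to 1.499) in squashed and 1.03 (-0.09 to 2.07) in control cells, with intervals that span 0.

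The ratio of CDK6 had opposite signs in cells called G1 and G2/M. In cells called G1 it stood at 20.8 CPM in squashed and 26.7 CPM in control cells (log2 ratio -0.36, -0.64 to -0.08), and in cells called G2/M at 23.4 and 18.2 CPM (0.36, 0.10 to 0.62). The median of all measured genes in G1, -0.24, lies inside the first interval, and relative to the medians CDK6 stood at -0.12 in G1 and 0.41 in G2/M. Within control cells CDK6 was lower in G2/M than in G1 (-0.55, -0.80 to -0.30), whereas within squashed cells the same ratio was 0.17 (-0.12 to 0.45). The S over G1 ratio of CDK6 was 0.51 (0.17 to 0.85) in squashed and -0.11 (-0.48 to 0.24) in control cells. The difference between the libraries in these ratios was not tested. RB1 was higher in S than in G1 in squashed cells, by 0.86 (0.31 to 1.41) on 54 and 64 UMIs, and the corresponding control ratio was 0.07 (-0.59 to 0.66), so the intervals overlap.

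Clustering of the cells, with the members left out and every gene centred within its library, gave 5 states. State 0 was led by genes of mitosis such as TUBA1C, TOP2A and CCNB1, state 1 by AKR1B1, GAS5 and EEF1A1, state 2 by PTTG1 and H2AFZ, and state 3 by the nuclear RNAs MALAT1 and NEAT1. State 4 held 49 squashed and 51 control cells with median mitochondrial shares of 0.125% and 0.167%. CCND1 was lower in squashed cells of every state: 119.9 and 332 CPM in state 0, 94.1 and 264 CPM in state 1, 72.8 and 251 CPM in state 2, 99.2 and 183 CPM in state 3, and 86.0 and 242 CPM in state 4, squashed value first. Its log2 ratio ran from -1.78 (-2.03 to -1.55) in state 2 to -0.88 (-1.02 to -0.75) in state 3. CCND3 stayed between -0.13 and 0.08 over the 5 states, with every interval spanning 0, unlike that over all kept cells. State 1, which had the least CCND3, held 35.4% of squashed and 15.8% of control cells placed in states, and the part of this in the ratio over all cells was not tested.

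**Figure D4:**
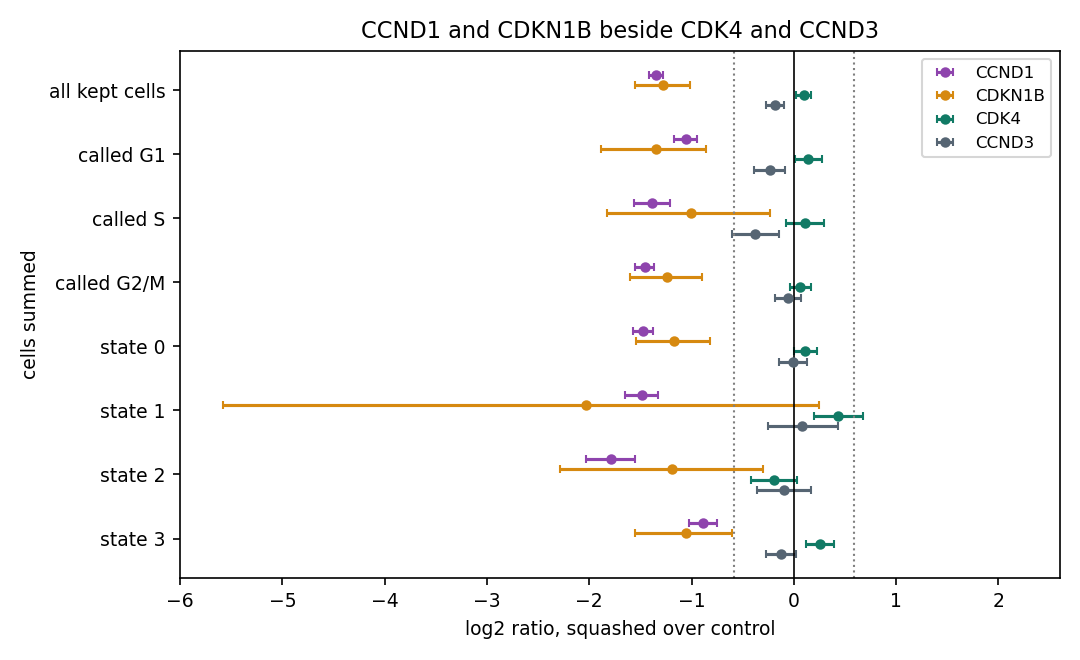
Log2 ratio of squashed over control for CCND1, CDKN1B, CDK4 and CCND3 in all kept cells, in each cell-cycle call and in states 0 to 3, with 95% counting intervals and dotted lines at 1.5-fold. CCND1 lies between -1.78 and -0.88 and CDKN1B between -2.03 and -1.002 in every row, while CDK4 and CCND3 lie within 1.5-fold; the widest interval, CDKN1B in state 1, rests on 2 squashed and 6 control UMIs.

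Several members differed in level between the states in a similar way in both libraries. State 1, whose cells held medians of 1303 genes in the squashed and 1405 genes in the control library, had little CDK6 (5.37 and 3.20 CPM) and CDKN1B (0.370 and 1.74 CPM) and the least CCND3 (35.7 and 33.7 CPM), while CCND1 stayed at the levels given above. State 3 had the highest CDK6, at 38.2 CPM in squashed and 38.5 CPM in control cells. In state 2 CDK6 was low as well, at 5.70 and 3.29 CPM. The log2 ratio of CDK6, squashed over control, was 0.43 (0.18 to 0.70) in state 0 and -0.01 (-0.26 to 0.23) in state 3. In states 1, 2 and 4 it rested on at most 29 UMIs per library, with intervals that span 0. States 1 and 2 held 35.4% and 16.8% of squashed and 15.8% and 24.7% of control cells. The part of these shares in the CDK6 ratio over all cells was not tested. CDK4 was also lowest in state 1, at 84.3 CPM in squashed and 62.2 CPM in control cells. In the other states it stood between 105 and 137 CPM in squashed and between 112 and 127 CPM in control cells. Its log2 ratio of squashed over control was 0.44 (0.20 to 0.68) in state 1 and 0.26 (0.12 to 0.39) in state 3. In the other states the interval of this ratio spans 0, with -0.19 (-0.42 to 0.04) in state 2. CCNE1 was highest in state 3, at 7.77 CPM in squashed and 3.46 CPM in control cells (48 and 31 UMIs, log2 ratio 1.16, 0.49 to 1.87). RB1 in state 2 was at 7.89 CPM in squashed and 2.53 CPM in control cells (18 and 10 UMIs, log2 ratio 1.61, 0.45 to 2.92). In the other states the interval of the RB1 ratio spans 0. CDK2 was highest in state 0, at 15.5 and 13.5 CPM, with intervals that overlap those of state 2. These are descriptions of clusters and were not tested.

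Correlations between members across cells were low, as sparse counts alone can make them, and say nothing of independence. In cells thinned to 10000 UMIs the highest correlation between any pair of members was that of CCND3 with CDK6 in squashed cells (Pearson r = 0.10, 906 cells), which is no finding. The genes whose counts ran most like CCND1 in both libraries were NCL, a nucleolar protein (r = 0.23 in 906 squashed and 0.27 in 1190 control cells), the chaperones HSPD1 (0.20 and 0.29) and HSP90AB1 (0.20 and 0.28), GPATCH4 (0.18 and 0.23) and HNRNPA3 (0.19 and 0.17). NCL itself stood at 1043 CPM in squashed and 941 CPM in control cells. These correlations were taken on log CPM with 100 CPM added, over cells of all states. The part of gene level and of state in this ranking was not tested.

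The measured genes in the rest of the G1 pathway mostly lay within 1.5-fold. Of 54 further genes (other CDK inhibitors, pocket proteins, E2F and DP factors, cyclins E and A, CDK activators, turnover factors, the DREAM complex and E2F targets) 24 were measured. Of these, 1 was at least 1.5-fold higher, 0 were lower by that size and 23 lay within it, beside 3.48% and 12.4% of all measured genes. Their median log2 ratio was 0.04, against -0.14 over all measured genes. The higher gene was CDKN1A (p21), a CDK inhibitor of the same family as CDKN1B, at 95.5 CPM in squashed and 62.4 CPM in control cells (0.61, 0.52 to 0.71). CDKN1A and CDKN1B thus lay on opposite sides of the control level. The remaining gene of that family, CDKN1C (p57), was scarce, at 0.472 and 1.75 CPM, and was named after its value was seen. It had 11 squashed and 48 control UMIs (-1.84, -2.98 to -0.92), on the side of CDKN1B. At a minimum of 1 CPM, 17.3% of 12273 genes were lower by 1.5-fold or more.

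Among 16 E2F targets 13 were measured, all within 1.5-fold, with a median of 0.11. TYMS, which makes thymidylate, was at 51.7 CPM in squashed and 37.6 CPM in control cells (0.46, 0.34 to 0.58). The helicase subunit MCM4 was at 31.1 and 44.3 CPM (-0.51, -0.65 to -0.38). The other helicase subunits listed, MCM2, MCM3, MCM5, MCM6 and MCM7, lay on the higher side. Their ratios ran from 0.16 (0.04 to 0.28) for MCM3 to 0.43 (0.13 to 0.73) for MCM2, which lay under 20 CPM. Cyclin A2 (CCNA2) was at 17.0 and 22.6 CPM (-0.41, -0.60 to -0.23). CKS1B, which helps SKP2 mark p27 for destruction, was at 346 CPM in squashed and 452 CPM in control cells (-0.39, -0.43 to -0.34), and the ligase scaffold CUL1 was at -0.25 (-0.44 to -0.07). CDC37, a chaperone that delivers CDK4 to HSP90, was at 0.24 (0.17 to 0.32), and MNAT1 of the CDK-activating kinase at 0.04 (-0.06 to 0.14). RBBP4 of the DREAM complex was at 0.14 (0.03 to 0.25), and MYBL2 at -0.11 (-0.27 to 0.04), which turned to 0.04 with TMM scaling. The INK4 inhibitor CDKN2C was scarce, at 6.82 CPM in squashed and 8.48 CPM in control cells, and so were the RB1 relatives RBL1 (5.40 and 7.42 CPM) and RBL2 (8.74 and 10.4 CPM). MTAP, the neighbour of CDKN2A, was at 9.26 CPM in squashed and 7.24 CPM in control cells.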

How the data were processed

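UMI counts per gene and barcode, whole numbers without normalization, were used as the authors deposited them. They were made with a Chromium 3.1 kit and Cell Ranger against 10x Genomics' GRCh38 reference, and the version of Cell Ranger is given as 4.0.0 in the headers of the files but 5.0.1 in the design text. The submitters' processing notes also list R 4.3.2. The rule for calling cells was not given in the sources used here, and the feature and barcode files hold names only.

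Barcodes were kept from 1000 UMIs and 500 genes upward if mitochondrial UMIs made up 20% or less. Scrublet in scanpy marked 15 squashed and 16 control doublets, which were kept in the main values. UMIs were summed per library and scaled to CPM, and log2 ratios used a prior of 0.5 count. Intervals are exact (Clopper-Pearson for ratios and shares, Poisson for levels, 95%) and cover counting error only; with 1 library per group no test was made. The limit for a count of 0 is 3 counts. Cells were called in G1, S or G2/M with scanpy after thinning to 2000 UMIs. Leiden clustering used 2000 variable genes, 30 components, 15 neighbours and resolution 0.5. Named genes were all 10 members, the 2 largest absolute ratios among the measured genes of each pathway list, and the 5 genes most correlated with CCND1. Genes under 20 CPM were not ranked, and some of them had larger ratios. CDKN1C, CDKN2C, RBL1, RBL2, CDT1, MCM2, MCM3, MCM5, MCM6 and MCM7 lie outside that rule and were chosen after their values were seen. Gene positions and canonical transcripts came from GENCODE 44, promoters from RefSeq. The members, lists and alternatives were chosen with earlier results of these data known. The log2 ratios, their intervals and the thinning were tested on simulated counts with Poisson noise only. The cell filter, cell-cycle calls, clustering and motif search were not tested in this way. Cells were handled in scanpy 1.11.5 with leidenalg 0.10.2 (Python 3.11.15), intervals came from scipy 1.17.1, and alternatives in R 4.3.3 used edgeR 4.0.16 for TMM scaling and DESeq2 1.42.0 for size factors.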

Additional observations from a re-analysis of the deposited data

Results flagged for a closer look

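CDK6 was singled out because its ratio of squashed over control had opposite signs in different cell-cycle calls, with both counting intervals clear of 0. The log2 ratio was 0.36 in cells called G2/M and -0.36 in cells called G1. Relative to the median of all measured genes in the same call, CDK6 stood at 0.41 in G2/M and -0.12 in G1, and the G1 median of -0.24 lies inside the CDK6 interval of -0.64 to -0.08. Each call holds 1 library per group, so the difference between the calls was not tested. In cells called G1 the median depth was 9263 UMIs in squashed and 14793 UMIs in control cells, and in cells called G2/M 11597 and 12348 UMIs, and the part of depth was not tested.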

How the results depend on the processing

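The log2 ratio of CCND1 lay between -1.54 (stricter cell filter) and -1.06 (only cells called G1) over 12 alternatives, that of CDKN1B between -1.38 and -1.002, and that of CCNE1 between 0.44 and 1.62, the last on cells thinned to 2000 UMIs with few counts. Each of these kept its sign under all 12. CCND3 lay between -0.38 and -0.01. The signs of CDK2 (1 of 12), CDK4 (2), CDK6 (1), RB1 (3) and E2F1 (2) turned in the number of alternatives given. That of CDK6 turned in cells called G1, at -0.36, and its highest value was 0.49, under the stricter cell filter. TMM scaling moved the median of all measured genes by 0.15. With no minimum level, 2 members were at least 1.5-fold lower (CCND1 and CDKN1B) and 2 higher (CCND2 and CCNE1). CCND2 rests on 5 and 1 UMIs and gives no direction. The share of all genes was taken down to 1 CPM only, where 17.3% were lower and 4.66% higher by that size. In cells called G2/M 2 members were lower (CCND1 and CDKN1B), beside 9.14% of all measured genes there. Of the pathway genes 2 were higher with TMM scaling (CDKN1A and TYMS) and 2 lower with the stricter filter (CCNA2 and MCM4). The shares of all measured genes under these 2 settings were not taken, so the counts say nothing particular to the pathway. At a minimum of 5 CPM 1 pathway gene was lower (CDT1), beside 14.6% of all genes measured at that level. With the stricter filter CCND1 gave 59.9% of D-type cyclin UMIs in squashed and 80.2% in control cells, and the cause was not tested. No paired analysis was possible because each group is 1 library. Depth limits E2F1, CCNE1 and CCND2 most. CCND2 had no UMI in either library in cells called S or G2/M or thinned to 2000 UMIs, which gave no ratio.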
